A study of Mus musculus with 4 samples.

Results

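The 10 genes described here encode the NF-κB subunits and their inhibitors, and they were taken by name from the 19555 rows measured in mouse T helper 17 (Th17) cultures. They comprise the subunit genes Rela, Rel, Relb, Nfkb1 and Nfkb2 and the inhibitor genes Nfkbia, Nfkbib, Nfkbie, Bcl3 and Tnfaip3. All 10 had a mean of at least 1 RPKM (reads divided by exon length in kilobases and by library size), the minimum for entering the fit across genes. Naive CD4+ T cells of C57BL/6 mice, sorted from spleen and lymph nodes, had been activated and kept for 3 days in culture with IL-6 and TGF-β1. The groups were Smad4 KO cells at 39.5 °C, Smad4 KO cells at 37 °C, wild-type (WT) cells at 39.5 °C and WT cells at 37 °C, with 1 RNA-seq library each. The sources used here do not give the age of the mice, the number of animals behind a library or the way in which Smad4 was deleted. The comparisons set these genes by the genotype label, Smad4 encoding the shared partner of the TGF-β-activated SMAD proteins, and by fever temperature.

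The targeted gene did not follow the label. Smad4 stood at 21.3 and 20.7 RPKM at 39.5 and 37 °C in the KO-labelled libraries, against 14.2 and 14.0 RPKM in WT. Gene-level RPKM holds no information on single exons, so the label could not be checked, and every genotype direction below is that of the label; the libraries are called KO-labelled throughout. The T cell genes Cd4 (192 to 212 RPKM) and Cd3e (49.0 to 59.2 RPKM) were present in every library. The 8 Th17 markers summed to 565 and 364 RPKM at 39.5 and 37 °C in the KO-labelled libraries, against 2209 and 769 RPKM in WT, and Il17a stood at 79.7 and 32.6 RPKM, against 686 and 134 RPKM. The 11 T cell markers summed to 2948 and 2993 RPKM, against 2433 and 2575 RPKM, but did not all move together. Cd5 was higher with the KO label (873 and 901 RPKM, against 488 and 731 RPKM). Cd247 (15.6 and 9.06 RPKM, against 58.4 and 21.4 RPKM) and Cd28 (84.0 and 80.2 RPKM, against 122 and 103 RPKM) were lower. The 4 Treg markers summed to 449 and 635 RPKM, against 483 and 496 RPKM. Nearly all of the Treg sum was Il2ra and Ctla4, while Foxp3, the defining Treg factor gene, fell with the KO label, at 0.477 and 1.98 RPKM, against 5.10 and 7.80 RPKM in WT (limma adjusted p = 0.012). Of 8 B cell markers 2 were measured, Ighm (3.37 and 8.69 RPKM, against 4.39 and 14.3 RPKM) and Cd79a (at most 0.485 RPKM). Of 15 myeloid and dendritic cell markers 7 were measured, with sums of 28.5 and 62.6 RPKM in the KO-labelled libraries, against 11.7 and 13.0 RPKM in WT. Ly6g (4.73 and 50.1 RPKM, against 2.69 and 9.97 RPKM) and Batf3 (15.3 and 8.24 RPKM, against 2.79 and 0.309 RPKM) made up most of these sums in all libraries except WT at 39.5 °C, where Cd68 (4.57 RPKM) was the highest, while Csf1r, Cd14 and Itgax stayed at or below 0.216 RPKM. Lyz2 was lower with the KO label, at most at 0.345 RPKM, against up to 1.22 RPKM in WT, and was so at both temperatures. The 5 measured CD8 and NK cell markers of 9 summed to 5.07 and 8.71 RPKM, against 5.31 and 5.14 RPKM. Recovered reads totalled between 17832563 and 18175479 per library. In bulk RNA, fewer cells of a type and less RNA per cell cannot be told apart.

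NF-κB proteins bind DNA as dimers of the products of the subunit genes. Rela, Rel and Relb encode subunits with a transactivation domain, while Nfkb1 and Nfkb2 encode precursors, p105 and p100, that are processed to the DNA-binding subunits p50 and p52. In resting cells the IκB proteins hold dimers in the cytoplasm; T cell receptor, costimulatory and cytokine signals lead to IκB degradation, and the freed dimers induce, among other genes, those of their own inhibitors. Bcl-3 is an atypical IκB that works in the nucleus with p50 and p52 homodimers, and A20, the product of Tnfaip3, is a ubiquitin-editing enzyme that shuts off upstream signalling.

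Promoter sequences are shown for the members that changed with the genotype label (Bcl3, Tnfaip3 and Rel), for Nfkbia, the textbook feedback gene of the pathway, and for Nfkb2, the member with the highest RPKM. They are RefSeq windows on GRCm38.p6 from 250 bases before to 50 bases after an annotated start, written 5′ to 3′ on the gene's strand. Capitals mark matches to the κB consensus, the DNA motif bound by NF-κB dimers, searched on both strands.
Bcl3 promoter, chr7:19822706-19823005, minus strand: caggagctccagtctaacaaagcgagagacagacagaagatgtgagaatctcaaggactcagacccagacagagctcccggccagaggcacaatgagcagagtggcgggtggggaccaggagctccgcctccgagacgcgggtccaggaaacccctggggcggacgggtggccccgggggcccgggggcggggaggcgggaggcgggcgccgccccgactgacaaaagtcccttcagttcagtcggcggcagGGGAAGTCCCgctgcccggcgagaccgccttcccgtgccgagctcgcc
Tnfaip3 promoter, chr10:19015361-19015660, minus strand: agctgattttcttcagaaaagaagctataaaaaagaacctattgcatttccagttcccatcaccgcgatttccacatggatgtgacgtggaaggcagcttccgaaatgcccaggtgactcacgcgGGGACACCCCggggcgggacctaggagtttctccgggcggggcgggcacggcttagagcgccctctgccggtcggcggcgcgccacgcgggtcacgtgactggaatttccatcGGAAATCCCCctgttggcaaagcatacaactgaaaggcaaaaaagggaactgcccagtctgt
Rel promoter, chr11:23770920-23771219, minus strand: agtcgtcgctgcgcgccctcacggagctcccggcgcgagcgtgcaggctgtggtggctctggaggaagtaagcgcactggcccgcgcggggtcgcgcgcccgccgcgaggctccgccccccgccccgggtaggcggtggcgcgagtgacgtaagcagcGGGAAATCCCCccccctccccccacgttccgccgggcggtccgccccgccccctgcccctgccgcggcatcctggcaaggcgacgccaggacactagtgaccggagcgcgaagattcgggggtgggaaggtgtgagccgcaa
Nfkbia promoter, chr12:55492598-55492897, minus strand: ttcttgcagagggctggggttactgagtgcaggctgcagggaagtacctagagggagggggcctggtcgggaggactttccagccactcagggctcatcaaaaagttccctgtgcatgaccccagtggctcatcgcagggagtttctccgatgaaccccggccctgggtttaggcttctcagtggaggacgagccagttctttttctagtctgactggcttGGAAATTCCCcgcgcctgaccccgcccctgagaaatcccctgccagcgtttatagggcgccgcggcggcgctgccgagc
Nfkb2 promoter, chr19:46304487-46304786, plus strand: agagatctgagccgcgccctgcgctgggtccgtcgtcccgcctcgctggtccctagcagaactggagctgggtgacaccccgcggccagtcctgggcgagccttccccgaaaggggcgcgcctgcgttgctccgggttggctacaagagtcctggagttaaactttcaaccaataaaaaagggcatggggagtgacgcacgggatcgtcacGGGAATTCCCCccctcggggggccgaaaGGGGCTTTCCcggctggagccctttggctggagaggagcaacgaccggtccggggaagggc
Such a match was found in 8.49% of 32544 promoter windows of this length in the RefSeq table. Among the members 11 windows of 8 genes were matched by symbol, and 8 windows of 6 genes held 1 or more matches. Nfkb1 and Relb had no window. Overlapping windows of Nfkb2, not shown (chr19:46305445-46305744 and chr19:46305680-46305979), hold the same match (GGGACTTTCC), which counts in each. Counting the annotated start as 0, the match in Bcl3 (GGGAAGTCCC) began at 2 and that in Nfkbia (GGAAATTCCC) at -29. Tnfaip3 had matches at -125 (GGGACACCCC) and -12 (GGAAATCCCC) in the window shown and 0 in its other window. Rel had a pair at -92 and -91 that overlap by all but 1 base, and Nfkb2 had an overlapping pair at -39 and -38 and another match at -11 (GGGGCTTTCC) in the window shown. Nfkbie had 1 match (GGGGGATTCC) at -106. The windows of Rela and Nfkbib held 0 matches, which says only that these letters are not within 300 bases there. A match is a description of the letters and not evidence of binding.

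The members covered a wide range of levels, and Nfkb2 was the highest in RPKM in all 4 libraries. It stood at 178 RPKM in the KO-labelled library at 39.5 °C and 127 RPKM in that at 37 °C, against 140.3 RPKM in WT at 39.5 °C and 118 RPKM in WT at 37 °C. Rela, Nfkbia and Nfkbib came next, with means over the libraries of 90.3, 95.5 and 80.1 RPKM and an order that changed from library to library. Nfkb1 (mean 42.5 RPKM) and Relb (40.5 RPKM) had overlapping ranges, and Nfkbie had a mean of 23.0 RPKM. The lowest were Tnfaip3 (5.73 RPKM) and Rel (3.16 RPKM), which traded places: Rel was below Tnfaip3 in both KO-labelled libraries and above it in both WT libraries. Bcl3 varied most among the members, with 2.98 times as much RPKM in its highest library as in its lowest, and its rank among them lay between the second and the seventh. Ranked within each library among the rows entering the fit, Nfkb2 stood at percentile 94.0 to 96.1 and Rel at 15.6 to 31.1. Any order between genes depends on the exon length used, from 1610 bases for Nfkbia to 12061 for Nfkb1, with 3289 for Nfkb2. In reads Nfkb1 was above Nfkb2 in all libraries except the KO-labelled one at 39.5 °C.

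**Figure D1:**
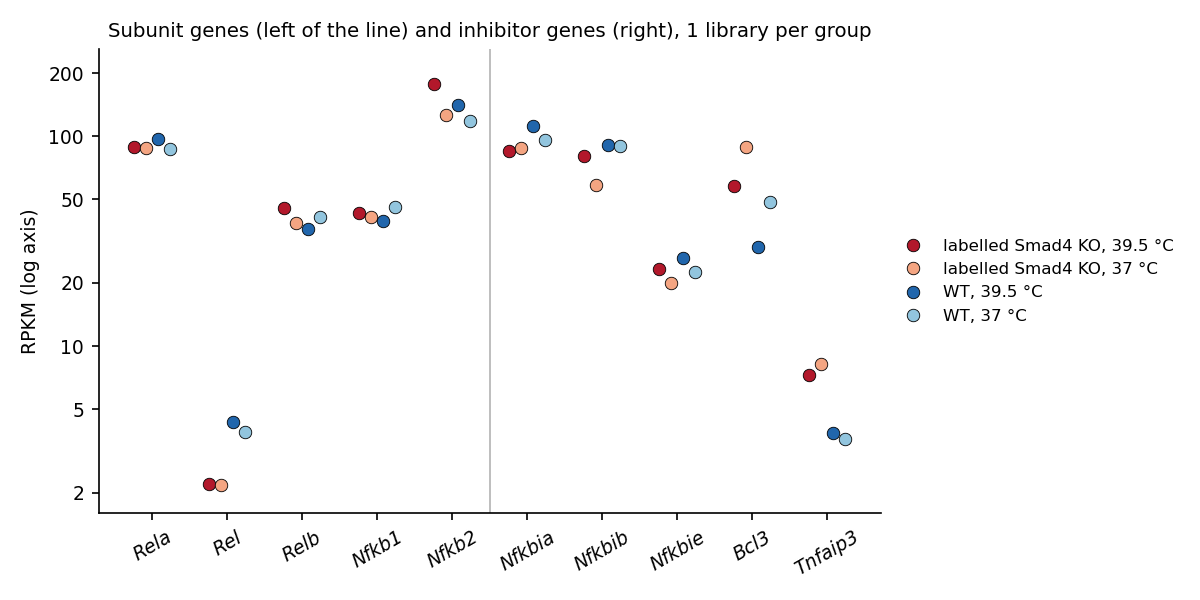
Expression of the 10 members in RPKM (log axis), with 1 point per library. Nfkb2 lies between 118 and 178 RPKM, and Bcl3, Tnfaip3 and Rel are the members whose points separate most between the KO-labelled libraries and WT.

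Bcl3 and Tnfaip3 rose with the KO label and Rel fell, in a limma fit of all 4 libraries with genotype label and temperature as terms. Bcl3 (chr7:19808462-19822770, minus strand, GENCODE vM21 on GRCm38) stood at 58.0 and 88.8 RPKM at 39.5 and 37 °C in the KO-labelled libraries (2641 and 3876 reads), against 29.8 and 48.5 RPKM in WT (1422 and 2186 reads). Both KO-labelled libraries were above both WT libraries, beside 59.5% of all rows that were separated by label in either direction. KO-labelled over WT, the RPKM ratio came to 1.95 at 39.5 °C (1.83 to 2.08, 95% interval) and 1.83 at 37 °C (1.74 to 1.93); the intervals, exact Clopper-Pearson on recovered whole reads, cover counting error only. In the fit the log2 change on the log2(RPKM + 1) scale was 0.90 ± 0.12 (SE; limma adjusted p = 0.016).

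Tnfaip3, the gene of A20 (chr10:19000910-19015657, minus strand), stood at 7.28 and 8.18 RPKM at 39.5 and 37 °C in the KO-labelled libraries (969 and 1043 reads), against 3.87 and 3.59 RPKM in WT (540 and 472 reads). Within each genotype label its values lay close together, and the labels did not overlap, beside 59.5% of all rows that were likewise separated by label. The ratio was 1.88 (1.69 to 2.09) at 39.5 °C and 2.28 (2.05 to 2.55) at 37 °C, with a fitted log2 change of 0.88 ± 0.14 (limma adjusted p = 0.021). Rel, which encodes c-Rel, a subunit known for its part in lymphocyte activation, went the other way. Rel (chr11:23736847-23770970, minus strand) stood at 2.20 and 2.17 RPKM at 39.5 and 37 °C in the KO-labelled libraries (302 and 286 reads), against 4.36 and 3.89 RPKM in WT (629 and 529 reads). Both KO-labelled libraries were below both WT libraries, with ratios of 0.504 (0.438 to 0.579) at 39.5 °C and 0.558 (0.482 to 0.646) at 37 °C. Its fitted log2 change was -0.69 ± 0.14 (limma adjusted p = 0.035).

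These 3 of 10 members stand beside 13.3% of all 13715 rows tested that passed the same test, 8.57% higher and 4.70% lower with the KO label, so 1 call among 10 genes would be near the background. The fit has 1 library per group and 1 residual degree of freedom, and nothing in the labels shows a spread between animals. Without a minimum level 0 of 19555 rows passed, and the adjusted p in limma was 0.055 for Bcl3, 0.075 for Tnfaip3 and 0.094 for Rel. By size on the log2(RPKM + 1) scale, 0 members were past 2-fold at 39.5 °C (3.35% of all rows were) and 1, Tnfaip3, at 37 °C (5.84% of all rows), a place it lost with upper quartile scaling. At 1.5-fold there were 3 at 39.5 °C (Bcl3, Tnfaip3 and Rel; 15.4% of all rows) and 4 at 37 °C (with Nfkbib; 18.8%). The summed myeloid and dendritic cell markers stood higher with the KO label (28.5 and 62.6 RPKM, against 11.7 and 13.0 RPKM). Ly6g and Batf3 made up most of these sums except in WT at 39.5 °C, and Lyz2 went the other way. The summed Th17 markers stood lower (565 and 364 RPKM, against 2209 and 769 RPKM). The part of either marker set in the differences of the members was not tested.

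**Figure D2:**
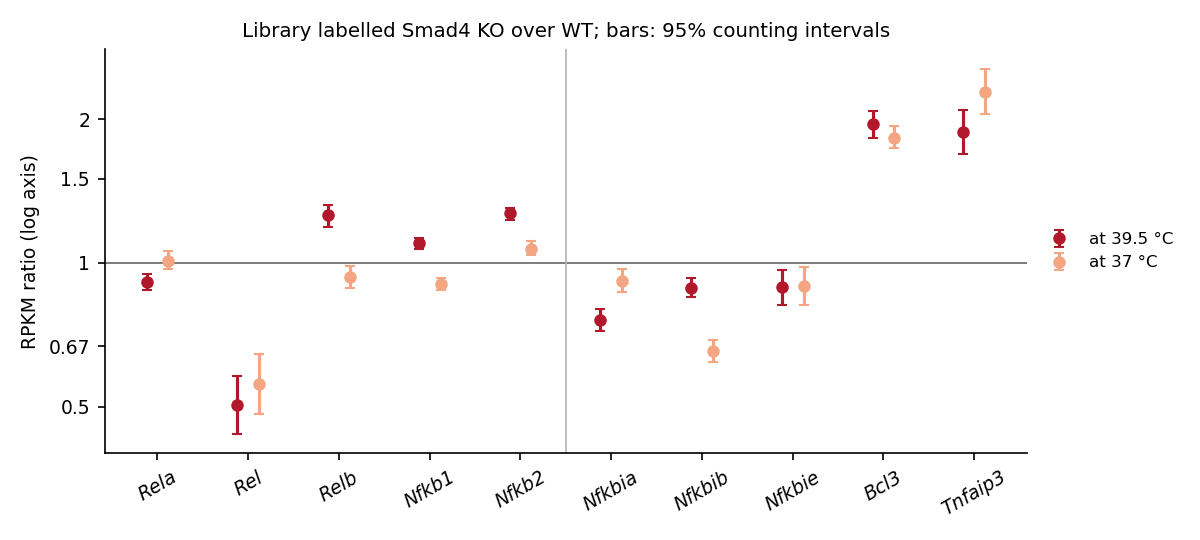
RPKM ratio, KO-labelled over WT (log axis), for each member at 39.5 and 37 °C, with exact 95% counting intervals. Bcl3 and Tnfaip3 lie between 1.83 and 2.28 at both temperatures and Rel at 0.504 and 0.558, while the other members lie between 0.655 and 1.27.

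The other 4 subunit genes showed small ratios, and for Relb and Nfkb1 the higher genotype was not the same at both temperatures. Rela, the main transactivating subunit gene, stood at 89.1 and 87.9 RPKM at 39.5 and 37 °C in the KO-labelled libraries, against 97.6 and 86.7 RPKM in WT. Its values overlapped between genotypes, and its fitted log2 change was -0.06 ± 0.12 (limma adjusted p = 0.768). The Rela ratio was 0.912 (0.876 to 0.950) at 39.5 °C and 1.01 (0.971 to 1.06) at 37 °C, where the counting interval held 1. Relb, the partner of p52 in the non-canonical pathway, stood at 45.6 and 38.7 RPKM, against 36.3 and 41.3 RPKM in WT. Nfkb1 stood at 43.2 and 41.4 RPKM, against 39.4 and 45.9 RPKM in WT. Relb and Nfkb1 were higher with the KO label at 39.5 °C and lower at 37 °C. The Nfkb2 ratio was 1.27 (1.23 to 1.30) at 39.5 °C and 1.07 (1.04 to 1.11) at 37 °C, and it did not pass the test (log2 0.22 ± 0.12, limma adjusted p = 0.251).

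The IκB genes leaned low with the KO label without passing the test. Nfkbia, encoding IκBα, stood at 85.4 and 88.2 RPKM at 39.5 and 37 °C in the KO-labelled libraries, against 112 and 96.0 RPKM in WT. Nfkbib, encoding IκBβ, stood at 80.9 and 58.7 RPKM, against 91.1 and 89.6 RPKM in WT. For both genes the KO-labelled libraries were below both WT libraries. The fitted log2 change was -0.26 ± 0.13 for Nfkbia (limma adjusted p = 0.212) and -0.39 ± 0.15 for Nfkbib (limma adjusted p = 0.134). Nfkbib had its lowest value in the KO-labelled library at 37 °C, where the ratio to WT was 0.655 (0.621 to 0.691). Nfkbie, encoding IκBε, stood at 23.3 and 20.1 RPKM against 26.2 and 22.5 RPKM, with a log2 change of -0.16 ± 0.12 (limma adjusted p = 0.393). In all, 5 of the 10 members had both libraries of one genotype label above or below both of the other, a share below the 59.5% of all rows. The median log2 change of the 10 members was -0.03, beside -0.01 over all rows.

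Bcl3 had the widest difference by temperature among the members, in the same direction in both genotypes, but it did not pass the test. At 39.5 °C it stood at 58.0 RPKM against 88.8 RPKM at 37 °C in the KO-labelled libraries, and at 29.8 RPKM against 48.5 RPKM in WT. The ratio of 39.5 to 37 °C was 0.653 (0.621 to 0.686) in the KO-labelled libraries and 0.614 (0.574 to 0.656) in WT. The fitted log2 change with temperature was -0.65 ± 0.12 (limma adjusted p = 0.134). Bcl3 passed with a minimum mean of 5 RPKM (adjusted p = 0.035 in limma) and with limma-voom on recovered reads (adjusted p = 0.044), an alternative added after the values were seen. An antisense gene, Gm16175, shares 161 exon bases with Bcl3 on the other strand, and the sources used here do not give the strand setting of the counting, so reads of the shared stretch cannot be told apart.

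Nfkb2 leaned the other way, towards higher levels at 39.5 °C. It stood at 178 RPKM at 39.5 °C against 127 RPKM at 37 °C in the KO-labelled libraries, and at 140.3 against 118 RPKM in WT. Both libraries at 39.5 °C were above both at 37 °C. The ratio was 1.41 (1.36 to 1.45) in the KO-labelled libraries and 1.19 (1.15 to 1.23) in WT, with a fitted log2 change of 0.37 ± 0.12 (limma adjusted p = 0.275). On the other strand the vM21 exons of Nfkb2 share 531 bases with a long noncoding RNA gene, not among the measured rows, and 299 with Psd. Nfkb2 was counted over 3289 bases, against 4584 in vM21, so whether the shared stretches were counted is not known. Psd stood at 4.39 and 2.68 RPKM at 39.5 and 37 °C in the KO-labelled libraries and at 3.93 and 2.90 RPKM in WT. The part of Psd in the Nfkb2 values was not tested. Nfkbie was also higher at 39.5 °C in both genotypes, by a ratio of 1.16 (1.06 to 1.27) in the KO-labelled libraries and 1.17 (1.07 to 1.27) in WT (limma adjusted p = 0.517).

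With adjustment over all rows, 0 of the 10 members passed for temperature in limma, where 0.0219% of all rows did. At an unadjusted p under 0.05 there were 2 members, Bcl3 and Nfkb2, at a background of 14.0% of all rows, and limma-voom called 1, Bcl3. By size 0 members were past 2-fold in the KO-labelled libraries (1.66% of all rows were) and 0 in WT (1.98%). At 1.5-fold it was Bcl3 alone, both in the KO-labelled libraries (7.12% of all rows) and in WT (7.93%). Rela, Nfkb2 and Nfkbie had both libraries at 39.5 °C above both at 37 °C, beside 26.0% of all rows separated by temperature in either direction. The median log2 change of the members was 0.08, beside -0.02 over all rows.

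**Figure D3:**
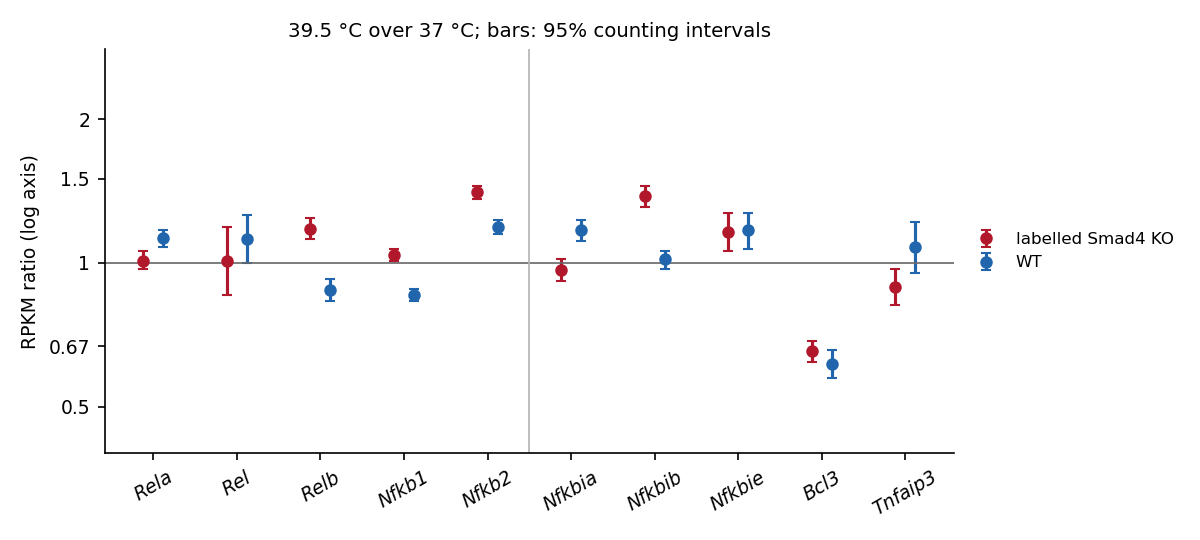
RPKM ratio of 39.5 to 37 °C (log axis) for each member in the KO-labelled libraries and in WT, with exact 95% counting intervals. Bcl3 lies at 0.653 and 0.614, below every other member, and Nfkb2 lies at 1.41 and 1.19.

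The temperature ratios of the genotypes were set against each other, member by member; with 1 library per group this difference has no test. Nfkbib and Relb had the widest gaps. Nfkbib had a ratio of 39.5 to 37 °C of 1.38 (1.31 to 1.45) in the KO-labelled libraries and 1.02 (0.971 to 1.06) in WT. Relb had ratios of 1.18 (1.12 to 1.24) and 0.878 (0.833 to 0.925), so it was higher at 39.5 °C with the KO label and lower in WT. The quotient of these ratios, the KO-labelled pair over the WT pair, was 1.36 (1.26 to 1.45) for Nfkbib and 1.34 (1.25 to 1.44) for Relb, with intervals for counting error only. Nfkb1 had a quotient of 1.22 (1.17 to 1.27) and Nfkb2 of 1.18 (1.13 to 1.23). On the other side lay Tnfaip3 at 0.825 (0.709 to 0.959), Nfkbia at 0.828 (0.769 to 0.892) and Rela at 0.900 (0.849 to 0.955). For Bcl3 (1.06, 0.979 to 1.16), Nfkbie (0.994, 0.879 to 1.12) and Rel (0.902, 0.739 to 1.10) the interval held 1. By size 0 members were past a 2-fold difference, where 2.22% of all rows were. On the other strand Nfkbib shares 314 exon bases with Ccer2, not among the measured rows, and 42 with Sirt2. Sirt2 stood at 31.7 and 25.4 RPKM at 39.5 and 37 °C in the KO-labelled libraries and at 28.5 and 24.7 RPKM in WT. The part of Sirt2 in the Nfkbib values was not tested.

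Summed over genes, the quotient of the classical IκB messages Nfkbia, Nfkbib and Nfkbie to subunit messages was lower in the KO-labelled libraries. The subunit genes summed to 358 RPKM at 39.5 °C and 297 RPKM at 37 °C with the KO label, against 318 and 296 RPKM in WT. Nfkb1 and Nfkb2, which encode the precursors p105 and p100, were counted wholly as subunits. Nfkb2 alone stood at 178 and 127 RPKM, against 140.3 and 118 RPKM in WT. Nfkbia, Nfkbib and Nfkbie summed to 189.6 and 167 RPKM, against 229.6 and 208 RPKM in WT. The quotient of IκB to subunit sums was thus 0.530 and 0.563 in the KO-labelled libraries and 0.722 and 0.704 in WT. With Bcl3 counted among the inhibitors it was 0.692 and 0.862 in the KO-labelled libraries and 0.816 and 0.868 in WT, so at 37 °C the values lay close together. The quotient is a description of 4 libraries, chosen after the values were seen, with no test. It compares messages and does not give the supply of inhibitor protein relative to subunit protein. Within the subunit sum Nfkb2 held 49.7% and 42.7% at 39.5 and 37 °C with the KO label, against 44.1% and 39.8% in WT. The share of Rel was 0.614% and 0.732%, against 1.37% and 1.32% in WT. Nfkb2 exceeded Nfkb1 4.12 and 3.06 times in RPKM with the KO label and 3.57 and 2.57 times in WT. The shares and these quotients depend on the exon lengths used, 3289 bases for Nfkb2 and 12061 for Nfkb1. In reads Nfkb2 had 10772 and 7340 with the KO label, where Nfkb1 had 9590 and 8805. In WT Nfkb2 had 8912 and 7057 reads and Nfkb1 had 9167 and 10080.

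**Figure D4:**
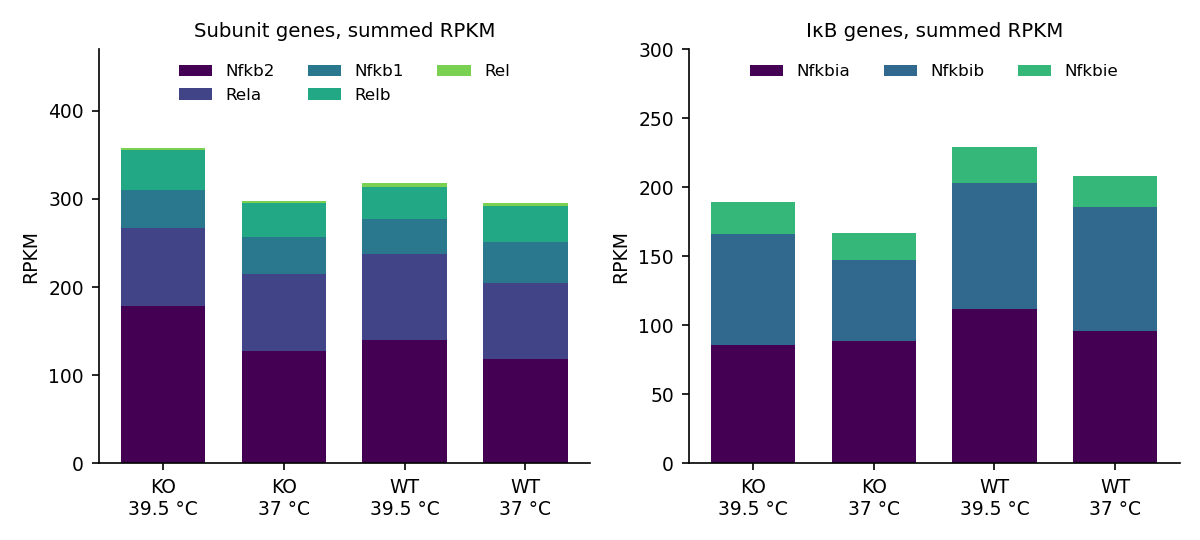
Stacked RPKM of the subunit genes (left) and the IκB genes (right) in each library, KO-labelled (KO) first. The IκB bars are lower in the KO-labelled libraries (189.6 and 167 RPKM) than in WT (229.6 and 208 RPKM), and Nfkb2 is the largest part of every subunit bar.

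The other genes of the pathway were read from 4 lists, with 19 different genes passing the same limma test for the genotype label, which 13.3% of all rows passed (8.57% higher and 4.70% lower). Of 14 other inhibitors, 13 were tested and 1 rose: Zc3h12a, encoding the RNase Regnase-1, stood at 13.9 and 18.7 RPKM at 39.5 and 37 °C with the KO label, against 8.63 and 9.77 RPKM in WT (adjusted p = 0.028 in limma). The ubiquitin-pathway inhibitor genes Cyld (3.26 and 3.30 RPKM, against 2.98 and 2.51 RPKM) and Otulin (45.0 and 41.9 RPKM, against 39.6 and 45.2 RPKM) did not pass. Of 29 kinases and adaptors tested, 3 rose and 1 fell, a share near the 13.3% of all rows. Ikbke, encoding the IKK-related kinase IKKε, stood at 8.98 and 10.5 RPKM, against 3.43 and 3.22 RPKM in WT, and was past 2-fold at both temperatures. Traf1, encoding an adaptor of TNF receptors, also rose, at 9.62 and 12.4 RPKM, against 6.62 and 6.19 RPKM in WT. Map3k7, encoding the IKK-activating kinase TAK1, fell, at 7.88 and 6.43 RPKM, against 14.2 and 9.32 RPKM in WT. The genes of the IKK complex itself did not pass: Chuk stood at 3.80 and 3.86 RPKM against 5.80 and 4.78 RPKM, Ikbkb at 4.36 and 4.66 RPKM against 4.94 and 4.99 RPKM, and Ikbkg at 4.41 and 4.84 RPKM against 4.13 and 3.76 RPKM.

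Among the 26 ligand and receptor genes 17 were tested, and 3 rose and 1 fell with the KO label, beside 8.57% higher and 4.70% lower over all rows. Ltb, encoding lymphotoxin β, a ligand of the non-canonical pathway, stood at 409 and 643 RPKM at 39.5 and 37 °C, against 133 and 210.1 RPKM in WT (log2 1.61 ± 0.10, limma adjusted p = 0.006). Tnfrsf18, encoding the costimulatory receptor GITR, stood at 85.6 and 146 RPKM, against 41.5 and 40.9 RPKM in WT. Tlr1 rose to 3.08 and 4.17 RPKM, against 1.10 and 1.38 RPKM in WT. Il1r1, the IL-1 receptor gene, fell, at 2.38 and 1.05 RPKM, against 13.8 and 2.90 RPKM in WT. Of 38 commonly cited NF-κB target genes 33 were tested, and 7 rose and 4 fell, beside the same shares over all rows, while 22 did not pass. Named are the 6 with the largest log2 changes, and the other target genes past the test all rose. Ier3 (16.8 and 35.0 RPKM, against 4.08 and 3.88 RPKM in WT) and the chemokine gene Ccl5 (13.9 and 7.03 RPKM, against 3.24 and 2.12 RPKM) rose. Il2 (7.64 and 5.75 RPKM, against 21.6 and 19.4 RPKM), Gadd45b (9.47 and 9.74 RPKM, against 30.3 and 18.5 RPKM), Cd69 (4.93 and 6.64 RPKM, against 9.12 and 13.1 RPKM) and Ccl3 (4.25 and 0.0740 RPKM, against 16.2 and 0.932 RPKM) fell. Ccl3 rests on 60 reads and 1 read in the KO-labelled libraries at 39.5 and 37 °C, against 240 and 13 reads in WT. The median log2 change was 0.04 for the other inhibitors, 0.00 for the kinases and adaptors, 0.30 for ligands and receptors and 0.08 for the target genes, beside -0.01 over all rows.

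For temperature, 0 genes of these lists passed in limma; at an unadjusted p under 0.05 there were 2 other inhibitors, 1 kinase or adaptor gene, 6 ligand or receptor genes and 12 target genes, beside 14.0% of all rows. The median log2 change was 0.06 for other inhibitors, -0.07 for kinases and adaptors, -0.11 for ligands and receptors and 0.06 for target genes, beside -0.02 over all rows. Past 2-fold in both genotypes were Ccl3, Tnfsf11 and Cd40lg. The share of all rows past 2-fold in both is not given here. In the KO-labelled libraries 1.66% of all rows were past 2-fold, and in WT 1.98%. Ccl3 rests on 1 read in the KO-labelled library at 37 °C. Tnfsf11, encoding the ligand RANKL, stood at 18.1 RPKM at 39.5 °C against 6.79 RPKM at 37 °C in the KO-labelled libraries, and at 18.2 against 6.28 RPKM in WT (limma adjusted p = 0.070). Cd40lg, encoding the CD40 ligand, stood at 25.6 against 12.1 RPKM with the KO label and at 48.9 against 16.1 RPKM in WT (limma adjusted p = 0.075). With upper quartile scaling 3 genes of the lists passed for temperature, as did 0.634% of all rows, and with limma-voom on recovered reads 8 did, as did 2.55% of all rows.

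**Figure D5:**
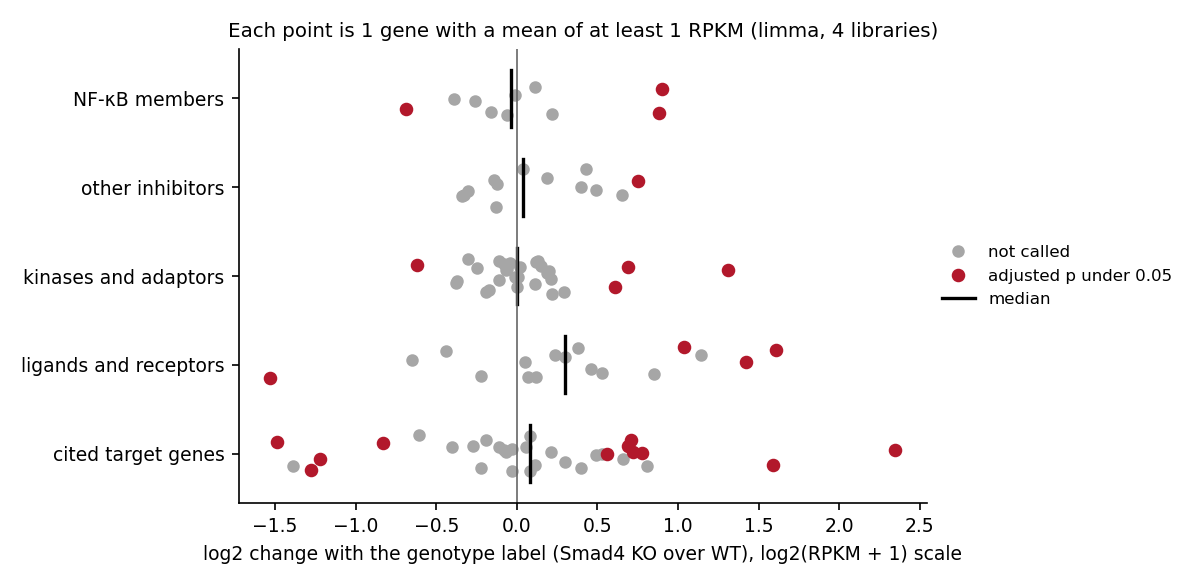
Fitted log2 change with the genotype label for the members and for the genes of 4 pathway lists, with 1 point per gene, red where the limma adjusted p was under 0.05 and a bar at each median. The medians lie between -0.03 and 0.30, and called genes lie on both sides of 0 in all sets except the other inhibitors, where 1 gene was called.

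Rows with a pattern like that of a member were sought for the 3 members with the widest range. Likeness was the root mean square distance of centred log2(RPKM + 1) values over the 4 libraries, among 8946 rows averaging 5 RPKM or more. The rows closest to Bcl3 were Zfp36, encoding the mRNA decay factor tristetraprolin, at a distance of 0.0433, Cdk2ap2 at 0.0479 and Lfng at 0.0504. Zfp36 stood at 24.0 and 36.9 RPKM at 39.5 and 37 °C with the KO label, against 12.9 and 20.9 RPKM in WT. The named gene closest to Tnfaip3 was Gsn, encoding the actin-severing protein gelsolin, at 0.0388, between rows named only by a clone at 0.0349 and 0.0398. Closest to Rel were Eif5, encoding a translation initiation factor, at 0.0198 (20.6 and 20.8 RPKM, against 35.0 and 32.9 RPKM in WT), a row named only by a clone at 0.0210 and Ppp4r3b at 0.0222. Each distance rests on 4 values per row and is given as a description.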

How the data were processed

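RNA was measured in 4 libraries, 1 per combination of genotype label and temperature, grouped by sample title. Per the labels' protocols, Trizol RNA went into a NEXTflex library kit. The submitters' processing notes name edgeR, Subread, featureCounts, Bowtie2 and Trim Galore 0.4.4 and the build mm10, without roles; the sources used here do not give the strand setting or the annotation release. The authors deposited RPKM values, already scaled to exon length and to a library size for each library. The library sizes that gave whole reads were 18410930 and 17639129 in the KO-labelled libraries at 39.5 and 37 °C. In WT they were 19308699 and 18216613. For the KO-labelled library at 37 °C this size was below the 18147234 reads recovered, so it was not the plain read total.

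Whole reads were recovered from exon length and library size: 91.7% of 13144 rows with a GENCODE vM21 exon length were whole in all libraries (tolerance 0.01 reads), and other rows were given their own length (tolerance 0.003 reads), among them Rela, Nfkb2 and Nfkbie, so their counted exons differ from vM21. Reads were recovered for 19549 of 19555 rows and summed to 18175479 and 18147234 in the KO-labelled libraries at 39.5 and 37 °C and 18056762 and 17832563 in WT at 39.5 and 37 °C. They were used for intervals (95%, counting error only, as PCR copies of 1 molecule cannot be told from separate molecules here) and for limma-voom. The listed edgeR and DESeq2 alternatives were not run.

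The fit was limma 3.58.1 in R 4.3.3 on log2(RPKM + 1), with genotype label and temperature as terms, empirical Bayes with a trend, and Benjamini-Hochberg adjustment over 13715 rows averaging 1 RPKM or more (threshold 0.05). Its error is the interaction of the 2 terms in these libraries, not a spread between animals or cultures. Pairs of libraries were compared by ratio and a 2-fold rule. The log2(RPKM + 1) scale understates changes of low genes. Scripts were tested on simulated data. The members and lists were chosen with earlier results of these data known. Named genes were the members, list genes past the test (up to 6 per list and term) or past 2-fold in both pairs (up to 4), and the 3 rows most like each of the 3 widest-ranging members; Cyld, Otulin, Chuk, Ikbkb, Ikbkg, Sirt2, Psd and marker genes were added after their values were seen. Some genes that this rule names are not reported here. Lists were 14 other inhibitors, 29 kinases and adaptors, 26 ligands and receptors and 38 cited targets, plus markers for T, Th17, B, myeloid and dendritic, CD8 and NK, and Treg cells. Alternatives were another pseudocount, minimum, scaling, size rule, variance model and limma-voom.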

Additional observations from a re-analysis of the deposited data

Results flagged for a closer look

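Relb and Nfkb1 moved in opposite directions in the genotypes, beyond counting error in each pair; the difference was not tested, since each group is 1 library. The ratio of 39.5 to 37 °C for Relb was 1.18 in the KO-labelled libraries and 0.878 in WT, and for Nfkb1 it was 1.04 and 0.858. Seen the other way, Relb stood KO-labelled over WT at a ratio of 1.26 at 39.5 °C and 0.936 at 37 °C, and for Nfkb1 it was 1.10 and 0.902.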

How the results depend on the processing

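Among the log2 changes of the members by genotype label and temperature, 133 alternative values kept their direction and their side of the threshold and 0 reversed; 2 passed and 3 fell short of the threshold only under the alternative. The 3 calls by genotype label became 0 without a minimum level, where 0 of 19555 rows passed; Rel, with a mean of 3.16 RPKM, could not be fitted with a minimum of 5 RPKM, where Bcl3 and Tnfaip3 passed. The count for temperature was 1 (Bcl3) with a minimum of 5 RPKM and 1 with limma-voom, the alternative added after the data were seen, against 0 in the fit reported. Over all rows the calls for the genotype label ranged from 0 without a minimum to 2895 (21.1%) with limma-voom, against 1820, and those for temperature from 0 without a variance trend or a minimum, through 30 (pseudocount 0.1), 87 (upper quartile scaling) and 290 (minimum of 5 RPKM), to 349 with limma-voom, against 3; the cause was not tested. Upper quartile scaling gave 0 members past 2-fold at 37 °C and 3 pathway list calls for temperature, and limma-voom gave 8 such calls. A 1.5-fold rule gave 3 members for the genotype label at 39.5 °C, 4 at 37 °C, 1 for temperature in the KO-labelled libraries and 1 in WT. edgeR and DESeq2 were not run; limma-voom was the count-based fit on the recovered reads. Leaving out a library leaves no residual, so no fit without one was possible. No paired analysis was possible because each group holds 1 library.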
